A study of Mus musculus with 9 samples.

Results

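Cadherins are calcium-dependent adhesion receptors that join neighboring cells by binding the same protein on the next cell. The cytoplasmic tail of a classical cadherin binds beta-catenin and p120-catenin, and alpha-catenin links this complex to actin. Cells of the osteoblast lineage are known for Cdh11, also called osteoblast cadherin, and for Cdh2, N-cadherin, whereas Cdh1, E-cadherin, marks most epithelia. The family was measured here as 8 genes, Cdh1, Cdh2, Cdh3, Cdh4, Cdh6, Cdh11, Cdh13 and Cdh15, chosen by gene symbol among the 55367 genes of the deposited count table.

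Whole-tumor RNA-Seq was available for 4 p53-driven and 5 Myc-knockin GEMM osteosarcomas, and the comparison asked how the 2 genotypes differ in cadherin RNA. The p53-driven tumors carried Col2.3-Cre with 1 floxed Trp53 allele (genotype label Col2.3-Cre/TrpP53fl/+), and the Myc-knockin tumors carried Cre, p53fl/+ and in addition a Lox-Stop-Lox (LSL) c-MycT58A allele. Cre and the floxed Trp53 allele were therefore shared by both groups, no treatment is named, and ages are not given in the labels. Col2.3 is an osteoblast promoter, so that recombination was directed to osteoblast lineage cells, while the RNA came from every cell of the resected tumor. Tumors are named by their columns, F for p53-driven and M for Myc-knockin. M351, M9 and M664 were placed in the Myc-knockin group from that letter alone, and nothing ties a column to a numbered sample.

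The libraries held between 2716322 and 17073285 counts. Genes of satellite repeats took between 23.2% and 81.0% of the counts of 4 libraries, F187, M351, M408 and M9, against at most 0.0242% in the other 5, and background reads were estimated per kilobase of exon from chemosensory receptor genes, which are silent in bone. M624 and M664 lacked the RNA Rn7sk (at most 9.32 CPM, against at least 8858 CPM in the others, relative to counts outside the satellite genes), so comparisons were repeated without this pair and without the 4 libraries with satellite reads. Every Myc-knockin library thus either held many satellite reads or lacked Rn7sk, and of the p53-driven libraries only F187 held many. Without those 4 libraries, genotype and the lack of Rn7sk cannot be told apart. Myc itself had 144 CPM or more in every Myc-knockin tumor and 67.1 CPM or less in every p53-driven tumor. CPM here is scaled to the TMM-normalized library size. Of 10 osteoblast markers, 8 were counted in every tumor, and Bglap and Bglap2, the osteocalcin genes, were at 0 in M408, with Bglap2 also at 0 in M624.

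Cdh11 and Cdh2 dominated the family in nearly every tumor. On the scale of CPM per kilobase of exon, which allows genes to be compared, the mean level in the p53-driven tumors was 58.4 for Cdh11, 42.8 for Cdh2 and 15.9 for Cdh15, a muscle cadherin. Cdh13, an atypical cadherin held to the membrane by a lipid anchor, had 2.00 CPM per kilobase, and Cdh6, Cdh1, Cdh3 and Cdh4 had 0.295 or less. The ranges of Cdh11 (42.6 to 82.2) and Cdh2 (31.5 to 50.2) overlapped among these tumors, and so did those of the 4 low members. In the Myc-knockin tumors the order of the means was again Cdh11 (20.3), Cdh2 (15.7), Cdh15 (10.1) and Cdh13 (2.09), and the ranges of the first 3 overlapped, with Cdh15 reaching from 1.31 to 27.1. The 8 levels summed to between 96.3 and 165 CPM per kilobase in the p53-driven tumors and to between 21.0 and 84.9 in the Myc-knockin tumors, so that the sums did not overlap.

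**Figure D1:**
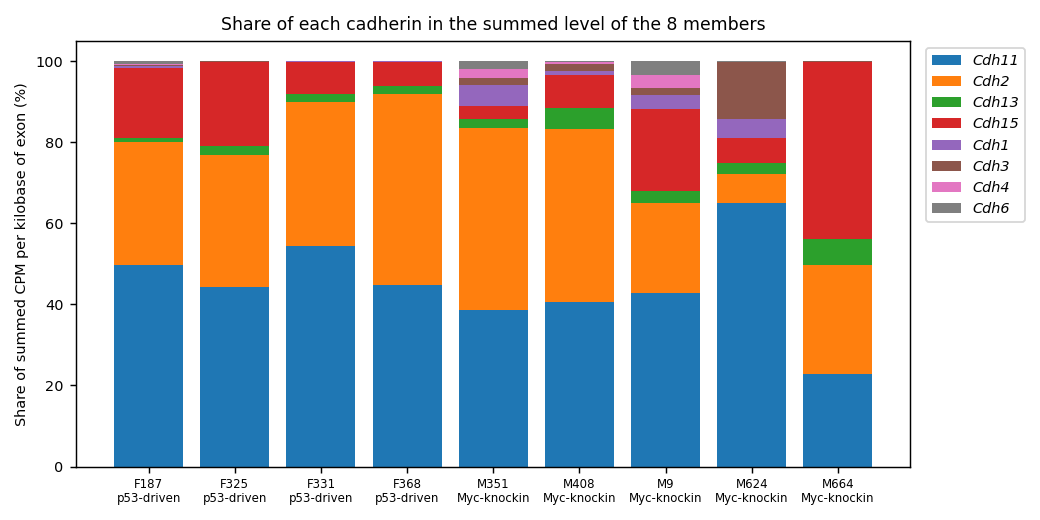
Share of each cadherin in the summed CPM per kilobase of exon of the 8 members (%), 1 stacked bar per tumor. Cdh11 and Cdh2 together made up 76.9% to 91.8% in the p53-driven tumors and 49.6% to 83.6% in the Myc-knockin tumors, where M664 had 43.6% Cdh15 and M624 had 14.0% Cdh3.

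The make-up of the family departed from this in a pair of Myc-knockin tumors. In M664, Cdh15 (43.6% of the summed level per kilobase) exceeded both Cdh2 (26.8%) and Cdh11 (22.9%). In M624, Cdh11 made up 65.0%, Cdh3 14.0% and Cdh2 only 7.26%. Every other tumor had Cdh11 and Cdh2 as its leading pair.

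All 8 members passed the filter on low counts and were tested with edgeR's quasi-likelihood test across 15365 genes. Cdh11, Cdh2, Cdh13 and Cdh15 were above the filter's minimum in all 9 tumors. Cdh1 and Cdh3 were above it in 5, of which 4 were Myc-knockin and 1 p53-driven. Cdh4 and Cdh6 were above it in 4, of which 3 were Myc-knockin and 1 p53-driven. A call required an adjusted p below 0.05 together with a change of over 1.5 times. Of all tested genes 5.27% were called, 2.26% as higher and 3.00% as lower in Myc-knockin. Among the 8 members, Cdh11 was called lower and none was called higher. DESeq2 and limma-voom also called 1 member lower and 0 higher. At an unadjusted p under 0.05, edgeR gave 2 members higher and 2 lower, where 26.8% of all tested genes passed. The 2 higher, Cdh1 and Cdh3, passed the filter mainly through the Myc-knockin tumors, the group where they were higher. Cdh11 and Cdh2, 2 of the 8, had no overlap between the genotypes, against 13.0% of all tested genes.

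**Figure D2:**
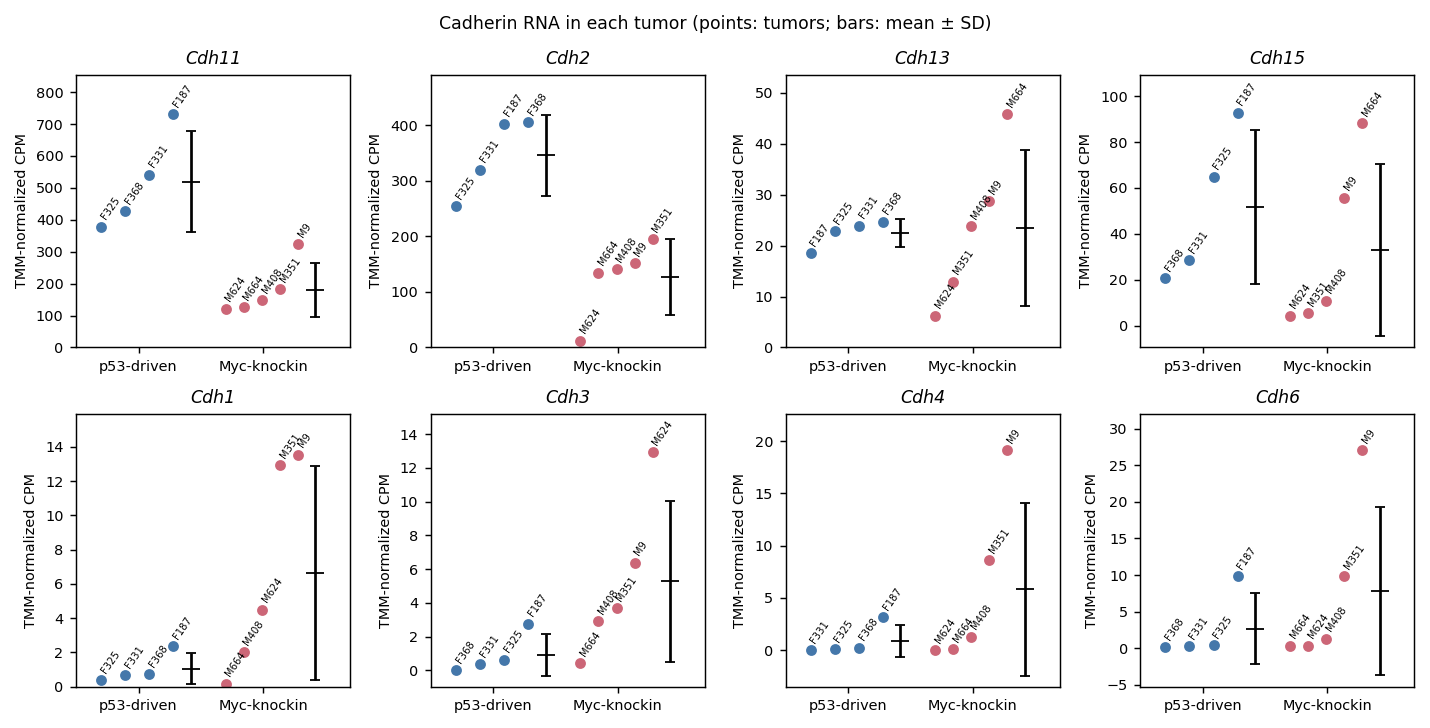
TMM-normalized CPM of the 8 members in each tumor, with points for tumors and bars for the mean ± SD of each genotype (n = 4 and n = 5), on linear axes of different range. Cdh11 and Cdh2 were lower in every Myc-knockin tumor than in any p53-driven tumor, and the other members overlapped.

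Cdh11 RNA fell in the Myc-knockin tumors. Cdh11 (ENSMUSG00000031673) lies on chromosome 8 of mm10 from 102632095 to 102785642 on the minus strand and encodes a type II classical cadherin. The p53-driven tumors had 379 CPM in F325, 427 in F368, 542 in F331 and 732 in F187. The Myc-knockin tumors had 122 CPM in M624, 127 in M664, 148 in M408, 183 in M351 and 324 in M9. The groups did not overlap, and M9, the library with the fewest counts outside the satellite genes (671790), came nearest to the p53-driven range. Mean Cdh11 was 519.9 ± 157 CPM (SD, n = 4) in p53-driven and 181 ± 83.8 CPM (SD, n = 5) in Myc-knockin tumors, a log2 fold change of -1.53 (standard error 0.38, edgeR adjusted p = 0.0441). A two-sided exact permutation test of the mean log2 CPM gave p = 0.0159. This is the smallest value that 5 tumors against 4 allow, and groups without overlap always give it.

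The direction of Cdh11 held in all 18 other settings, with log2 fold changes between -1.84 and -1.21, but the call did not. It was lost in 5 of 9 other ways of processing. Among the 9 fits that left out 1 tumor it was lost in 8, all but the one without M9. Without F325, F331 or F368 the number of genes called in all was only 8, 6 and 5, against 809. Cdh11 had a log2 fold change of -1.21 (edgeR adjusted p = 0.0998) once M624 and M664 were removed, and of -1.84 (edgeR adjusted p = 0.0135) once the 4 satellite-rich libraries were removed. The latter fit set F325, F331 and F368 against M624 and M664, so genotype could not be told apart from the lack of Rn7sk. DESeq2 gave -1.55 with an adjusted p of 0.000437.

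**Figure D3:**
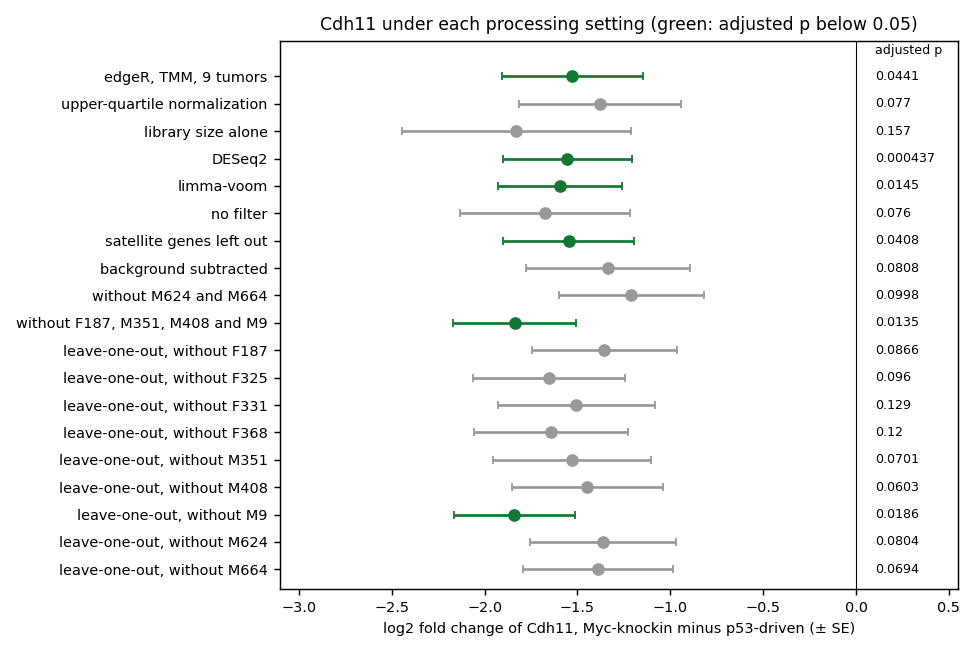
Log2 fold change of Cdh11 (Myc-knockin minus p53-driven, ± standard error) in the comparison of all 9 tumors and in 18 alternative settings, with the adjusted p at the right and green for those below 0.05. All points lie between -1.84 and -1.21, left of 0, and their standard errors overlap.

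Some markers of several cell types were, like Cdh11, called lower in the Myc-knockin tumors. The 7 osteoclast markers summed to between 2595 and 13619 CPM in the p53-driven and to between 116 and 2548 CPM in the Myc-knockin tumors, and edgeR called 5 of them lower, Ctsk, Calcr, Dcstamp, Ocstamp and Oscar (median log2 fold change of the 7, -3.81). The 7 macrophage and leukocyte markers summed to between 783 and 1485 CPM and to between 261 and 783 CPM, touching at F187 and M664. Of these 7, 3 were called lower, Cd68, Csf1r and Tyrobp, 3 overlapped, and 6 had a log2 fold change below 0. C1qa was the exception in direction (58.5 and 65.2 CPM, log2 fold change 0.17, edgeR adjusted p = 0.875). The 10 osteoblast markers summed to between 46879 and 96531 CPM and to between 2446 and 25834 CPM, but most of this was Col1a1, the gene of type I collagen, with 40517 to 89709 CPM and 2098 to 20368 CPM. The sum of the other 9 overlapped, with 3409 to 7706 CPM in the p53-driven and 349 to 5466 CPM in the Myc-knockin tumors. All 10 had a log2 fold change below 0, 2 were called lower, Bglap and Bglap2, and 6 overlapped between the genotypes. The 6 fibroblast markers summed to between 2375 and 2739 CPM and to between 610 and 1398 CPM. Of these, Dcn and Lum, small proteoglycans of the matrix, were called lower, 4 overlapped, and 5 had a log2 fold change below 0, with Thy1 the exception (8.05 and 23.6 CPM, log2 fold change 1.55, edgeR adjusted p = 0.136). Their part in the result for Cdh11 was not tested. In whole-tumor RNA, fewer cells of a type cannot be told apart from less RNA per cell.

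Cdh2 was the other member without overlap, and it did not pass the test. Cdh2 (ENSMUSG00000024304), a type I classical cadherin of mesenchymal and neural cells, had 254 CPM in F325, 319.8 in F331, 403 in F187 and 405 in F368. The Myc-knockin tumors had 12.3 CPM in M624, 135 in M664, 141 in M408, 151 in M9 and 195 in M351. M624 stood far below every other tumor, and the remaining 4 Myc-knockin tumors lay close together under the p53-driven range. The means were 346 ± 72.8 CPM (SD, n = 4) and 127 ± 68.1 CPM (SD, n = 5), and the log2 fold change was -1.45 (standard error 0.57, edgeR adjusted p = 0.136). The two-sided exact permutation p was 0.0159, the smallest possible, which groups without overlap always give. Over the 18 other settings the log2 fold change lay between -2.12 and -1.04 and the adjusted p between 0.0593, with DESeq2, and 0.307. Without M624 and M664 it was -1.04 (edgeR adjusted p = 0.0736).

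The ratio of Cdh11 to Cdh2, which does not depend on library scaling, was set against the genotype in each tumor. Per kilobase of exon it was 0.954 in F368 and between 1.35 and 1.65 in the other p53-driven tumors. It was 0.854 in both M351 and M664, 0.948 in M408, 1.94 in M9 and 8.95 in M624. The ratios of the groups overlapped, with a mean log2 difference of 0.29 (two-sided exact permutation p = 0.905).

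The genes with the pattern most like each of the 2 main cadherins were ranked by Pearson correlation of log2 CPM over the 9 tumors, among 9538 other tested genes with a mean of at least 10 CPM. For Cdh11 they were Pcdh18, a protocadherin (r = 0.985), Adamts9, a secreted metalloprotease (0.971), Gucy1b1, a guanylate cyclase subunit (0.966), Snai2 (0.960) and the semaphorin receptor gene Plxna2 (0.956). For Cdh2 they included Dpysl3 (0.985), Runx2, the master transcription factor of osteoblasts (0.981), the adhesive phosphatase Ptprm (0.981) and Dnm3os (0.977). Cdh11 and Cdh2 had r = 0.731 with each other. The points share libraries of very different depth and 2 genotypes, so these are descriptions. M624 was the lowest tumor for these 4 genes, with 9.18 CPM of Runx2 against 132 CPM or more in every other tumor. The 4 were picked for their likeness to Cdh2, itself lowest in M624 at 12.3 CPM, so their low values there follow from the choice. Sp7, the osteoblast factor that acts after Runx2, had 25.9 CPM in M624, 34.4 in M408 and at least 147 CPM in the others.

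Cdh15 and Cdh13 showed no difference beyond the spread between tumors. Cdh15, M-cadherin, is known from muscle stem cells and developing skeletal muscle. Cdh15 (ENSMUSG00000031962) lies on chromosome 8 of mm10 from 122847966 to 122867397 on the plus strand. Its promoter is shown because it is 1 of 2 of the 8 members for which a RefSeq window of 250 bases before and 50 after the start was at hand, and because it holds CACGTG, the E-box that MYC binds with MAX. The window lies at chr8:122848124-122848423 (GRCm38.p6, plus strand), inside the gene as GENCODE draws it, and each match to CANNTG, the general E-box, is in capitals.
Cdh15: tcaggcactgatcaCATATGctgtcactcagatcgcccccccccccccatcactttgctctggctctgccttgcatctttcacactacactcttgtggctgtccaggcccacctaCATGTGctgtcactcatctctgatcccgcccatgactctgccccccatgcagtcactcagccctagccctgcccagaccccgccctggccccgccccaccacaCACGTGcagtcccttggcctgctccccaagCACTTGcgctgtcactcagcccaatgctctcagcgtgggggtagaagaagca

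The 4 matches begin 236, 135, 32 and 2 bases before the start, and the one at 32 bases is CACGTG. Both motifs read the same on the other strand. The MYC motif is a special case of the general one and was found in 7.15% of the 32851 RefSeq promoter windows, and the general E-box in 72.3%. A match in this window says nothing of binding, which was not measured.

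Cdh15 RNA differed widely within each genotype. The p53-driven tumors had 20.8 CPM in F368, 28.5 in F331, 64.9 in F325 and 92.8 in F187. The Myc-knockin tumors had 4.27 CPM in M624, 5.54 in M351, 10.8 in M408, 55.8 in M9 and 88.3 in M664. The groups overlapped, although M624, M351 and M408 lay below every p53-driven tumor. The log2 fold change was -0.64 (standard error 0.84, edgeR adjusted p = 0.660), and over the other settings it lay between -1.48 without M664 (edgeR adjusted p = 0.280) and 0.32 once the 4 satellite-rich libraries were removed. With limma-voom it was -1.32 (adjusted p = 0.292).

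The sum of skeletal muscle markers did not rank the tumors as Cdh15 did. The 10 markers summed to 12055 CPM in F325 and 6422 CPM in M408, but to 136 CPM in F187, the tumor with the most Cdh15. Most of each of these sums was Ttn, with 8566 CPM in F325, 4907 CPM in M408 and 119 CPM in F187. In F187 the muscle genes Acta1 and Ckm had 5 counts and 1 count, Myog had 0, Pax7 had 9 and Ttn had 301, and Cdh15 had 235. M664, with 2044 counts of Cdh15, had a summed marker level of 513 CPM. M624 was lowest for both, with a marker sum of 7.16 CPM.

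**Figure D4:**
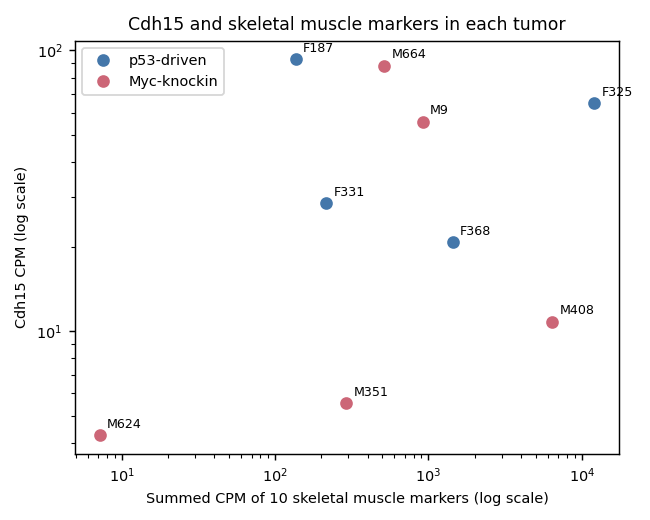
CPM of Cdh15 against the summed CPM of 10 skeletal muscle markers in each tumor, both on log axes, colored by genotype. F187 has the highest Cdh15 (92.8 CPM) with a marker sum of 136 CPM, whereas M408 has 10.8 CPM of Cdh15 with a marker sum of 6422 CPM.

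Cdh13 (ENSMUSG00000031841), T-cadherin, which endothelial and mural cells express and which binds adiponectin, lies on chromosome 8 from 118283733 to 119324921. It was even among the p53-driven tumors, with 18.6 CPM in F187, 22.9 in F325, 23.9 in F331 and 24.7 in F368. The Myc-knockin tumors had 6.21 CPM in M624, 12.9 in M351, 23.8 in M408, 28.7 in M9 and 45.9 in M664, and so lay on both sides of that range. In M351 and M9, 12.6 of 21 and 14.0 of 36 reads were expected as background. The log2 fold change was 0.06 (standard error 0.48, edgeR adjusted p = 0.949), with values on either side of 0 in other settings.

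The epithelial cadherins Cdh1 and Cdh3 were low, and neither passed the test. Cdh1 (ENSMUSG00000000303) and Cdh3 (ENSMUSG00000061048), P-cadherin of basal epithelia, are neighbors on chromosome 8, from 106603351 to 106670246 and from 106510891 to 106557297. Cdh1 had between 0.389 and 0.729 CPM in F325, F331 and F368 and 2.37 in F187. The Myc-knockin tumors had 0.173 CPM in M664, 2.01 in M408, 4.50 in M624, 12.9 in M351 and 13.5 in M9. The groups overlapped through M664, the lowest tumor of all, although 3 Myc-knockin tumors exceeded every p53-driven tumor. The log2 fold change was 2.72 (standard error 1.11, edgeR adjusted p = 0.146), and over the other settings it lay between 0.89 with limma-voom (adjusted p = 0.746) and 3.33 without M624 and M664 (edgeR adjusted p = 0.0613). The 21 reads in M351 and the 17 in M9 stood beside 5.1 and 5.7 reads expected as background, and the 118 reads in M624 beside 0.2.

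Cdh3 had 0 counts in F368, which allows up to 0.365 CPM, 0.346 CPM in F331, 0.622 in F325 and 2.76 in F187. It had 0.432 CPM in M664, 2.93 in M408, 3.69 in M351, 6.37 in M9 and 12.9 in M624. The 339 reads of Cdh3 in M624 stood beside 0.2 expected as background, whereas the 6 reads in M351 and 8 in M9 stood beside 4.9 and 5.4. The log2 fold change was 2.73 (standard error 1.20, edgeR adjusted p = 0.174), and it was 2.04 without M624 (edgeR adjusted p = 0.321) and 3.91 without F187 (edgeR adjusted p = 0.108). The exact permutation p was 0.190 for Cdh1 and 0.0635 for Cdh3, both two-sided.

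Epithelial markers were also low and uneven. The 10 markers summed to between 2.31 and 17.8 CPM in the p53-driven and to between 13.6 and 164 CPM in the Myc-knockin tumors, with 3 of the 10 counted in every tumor. M408 had 116 CPM of Krt18, a keratin gene of simple epithelia, and 24.0 CPM of Epcam, an epithelial adhesion gene, and M624 had 17.8 and 5.98 CPM. Krt8 had 21.1 CPM in M408, but the other markers of the list had 0.916 CPM or less there. Krt5 and Krt14, keratins of basal epithelia, were highest in M351, at 19.7 and 22.2 CPM, and Krt5 was at 0 in M408, F325, F331 and F368. The part of epithelial cells in the values of Cdh1 and Cdh3 was not tested.

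**Figure D5:**
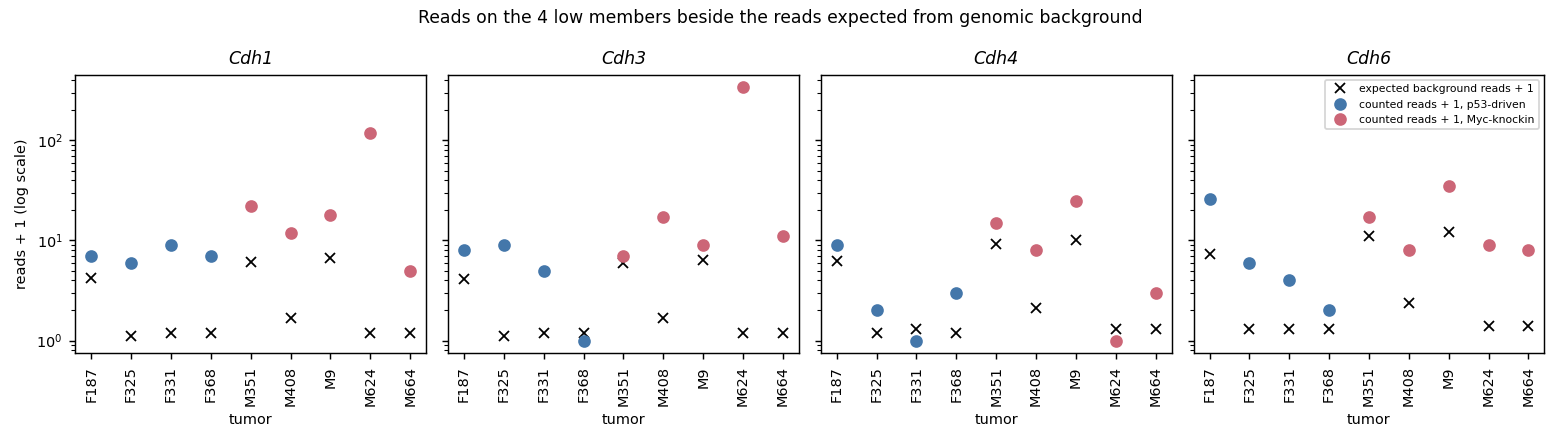
Reads counted on Cdh1, Cdh3, Cdh4 and Cdh6 in each tumor, plus 1, on a log axis, with crosses for the reads expected from background, plus 1. Cdh3 in M624 (339 reads) and Cdh1 in M624 (118 reads) lie far above their crosses, whereas Cdh4 has 24 reads in M9 and 14 in M351 beside 9.0 and 8.2 expected.

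Cdh4 and Cdh6 were near the lower limit of the data. Cdh4 (ENSMUSG00000000305), R-cadherin of retina and brain, lies on chromosome 2 from 179442431 to 179899373, and Cdh6 (ENSMUSG00000039385), K-cadherin of the fetal kidney, on chromosome 15 from 13028701 to 13173675. Both reached the filter's minimum in 4 libraries, F187, M351, M408 and M9, the ones with satellite reads. Cdh4 had 3.16 CPM in F187, 8.62 in M351, 1.28 in M408 and 19.1 in M9, and at most 0.243 CPM in the other 5, with 0 counts in F331 and M624, which allow up to 0.259 and 0.114 CPM. Cdh6 had 9.87 CPM in F187, 9.85 in M351, 1.28 in M408 and 27.1 in M9, and at most 0.389 CPM in the other 5. Both genes were therefore high in the same libraries of both genotypes. For Cdh6, 25, 16 and 34 reads in F187, M351 and M9 stood beside 6.4, 10.1 and 11.2 expected as background. The log2 fold changes were 2.98 for Cdh4 (standard error 1.96, edgeR adjusted p = 0.355) and 1.60 for Cdh6 (standard error 1.61, edgeR adjusted p = 0.556). Without F187 they were 5.55 (edgeR adjusted p = 0.162) and 4.65 (edgeR adjusted p = 0.130), and with limma-voom -1.20 (adjusted p = 0.731) and 0.16 (adjusted p = 0.940).

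The Cdh6 window is the other member promoter at hand (RefSeq, GRCm38.p6, chr15:13173626-13173925, minus strand), shown beside that of Cdh15 as one without CACGTG. Its single match to CANNTG, in capitals, is CACTTG and begins 15 bases before the start.
Cdh6: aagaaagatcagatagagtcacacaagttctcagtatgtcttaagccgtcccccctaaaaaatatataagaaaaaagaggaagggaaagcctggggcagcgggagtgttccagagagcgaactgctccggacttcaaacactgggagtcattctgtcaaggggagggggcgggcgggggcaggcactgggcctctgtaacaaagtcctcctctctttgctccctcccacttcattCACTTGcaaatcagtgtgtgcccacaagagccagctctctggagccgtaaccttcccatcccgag

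Other genes of the cadherin system were taken from lists, and Snai2 alone was called by edgeR. Snai2, known as Slug, is a zinc finger repressor of Cdh1 in mesenchymal cells. It had 28.1 CPM in F331, 44.1 in F325, 54.3 in F368 and 88.9 in F187, and 3.84 CPM in M664, 4.57 in M624, 6.59 in M408, 6.77 in M351 and 21.5 in M9. The groups did not overlap, and Snai2 fell from 53.9 ± 25.7 CPM (SD, n = 4) to 8.66 ± 7.30 CPM (SD, n = 5), a log2 fold change of -2.75 (standard error 0.54, edgeR adjusted p = 0.0255). Of the 5 tested genes among 7 repressors, 1 was called lower and none higher, and the median log2 fold change of the 5 was -0.75, against 0.14 over all tested genes. Zeb2 had means of 403 and 158 CPM without overlap but did not pass (edgeR adjusted p = 0.161), and neither did Zeb1 (-0.75, edgeR adjusted p = 0.192), Twist1 (-0.75, edgeR adjusted p = 0.432) or Snai1 (0.49, edgeR adjusted p = 0.550). The call of Snai2 was the only one in the list. The list had 0 calls without M624 and M664 and without F325, F331 or F368. Leaving out F325, F331 or F368 left only 8, 6 and 5 genes called in all, against 809 with all 9 tumors.

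The catenins and the proteins that tie them to actin gave no call with edgeR among 11 tested genes of 11, and their median log2 fold change was -0.001. At an unadjusted p under 0.05 there were 3 of the 11, where 26.8% of all tested genes passed. DESeq2 and limma-voom called 1 each, among 2317 and 2977 genes called in all. Ctnnb1, beta-catenin, had a mean of 472 CPM in the p53-driven and 515 CPM in the Myc-knockin tumors (log2 fold change 0.13, edgeR adjusted p = 0.876). Ctnnd1, p120-catenin, had 49.2 and 31.1 CPM without overlap (-0.66, edgeR adjusted p = 0.114), and Vcl, vinculin, had 95.6 and 55.7 CPM (-0.79, edgeR adjusted p = 0.103).

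Among 15 further cadherin genes, 5 were tested and edgeR called none, with 1 at an unadjusted p under 0.05 and 0 calls by DESeq2 and limma-voom. Cdh5, the endothelial cadherin, was the most abundant of them, with 147 and 86.6 CPM (log2 fold change -0.75, edgeR adjusted p = 0.323). It was lowest in M624, at 26.9 CPM, where the 8 endothelial markers also had their lowest sum, 97.7 CPM. Cdh5 is itself among these 8 markers and so part of that sum. Cdh24 was the other cadherin nearest to the threshold, with means of 1.71 and 6.95 CPM (2.06, edgeR adjusted p = 0.163). Neither the 5 genes of the nectin list, which are adhesion receptors beside cadherins, nor the 8 protease and turnover genes gave a call with edgeR, DESeq2 or limma-voom, and each list had 0 genes at an unadjusted p under 0.05 with edgeR. Of the 8 desmosome genes, 5 were tested and edgeR called 0. At an unadjusted p under 0.05 there were 3, where 26.8% of all tested genes passed. DESeq2, fitted without the filter on low counts, called 4 of the list, among 2317 genes called in all, and limma-voom called 0. Dsp, desmoplakin, had 1.38 CPM in the p53-driven and 22.1 CPM in the Myc-knockin tumors (4.53, edgeR adjusted p = 0.0814), with 67.1 CPM in M351 alone. Dsp reached the filter's minimum in 5 Myc-knockin tumors and in 1 p53-driven tumor. For the plakophilins these numbers were 5 and 0 (Pkp3), 4 and 1 (Pkp1) and 4 and 4 (Pkp2), and for Dsg2 they were 3 and 2. The median log2 fold changes were 0.38 for the nectins and -0.29 for the proteases.

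Markers of the remaining cell types were also compared between the groups as summed CPM. Pericyte and smooth muscle markers (289.5 to 486 CPM in p53-driven tumors, from 129 CPM in M408 to 308 CPM in M624 and above that in M664 among the Myc-knockin tumors) and neural and Schwann markers (53.4 to 230.5 CPM against 66.2 to 114 CPM) overlapped, as did the endothelial markers (360.1 to 504 CPM against 97.7 to 499 CPM). Their part in the cadherin values was not tested.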

How the data were processed

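Whole tumors of 4 p53-driven and 5 Myc-knockin GEMMs were profiled by RNA-Seq. The authors enriched mRNA with oligo-dT, made stranded libraries, trimmed reads with Trim Galore, mapped them with STAR to mm10 and deposited raw counts per gene from featureCounts, with no normalization. The strand setting, the handling of multimapping reads and the annotation are not given in the sources used here. The sources used here do not state that each tumor came from a different animal, so p values measure only the spread between these samples, which may be technical.

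Counts were fitted across all genes in R 4.3.3 with edgeR 4.0.16 (TMM, filterByExpr with a minimum count of 10, glmQLFit, glmQLFTest, no covariates), and p values were adjusted by Benjamini-Hochberg over 15365 genes. DESeq2 1.42.0 and limma-voom (limma 3.58.1) were alternatives, and the code was tested on simulated data. Log2 CPM used a prior count of 2. Exon lengths and positions came from GENCODE M21 (GRCm38, the mm10 genome), which held 55111 of the 55367 gene identifiers. Background reads per kilobase of exon were estimated from 1821 chemosensory receptor genes. A library can show no less than 3 counts with confidence, which is 0.114 to 2.39 CPM, and this covers counting error only. Promoters were RefSeq's, and 2 of 8 members matched.

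The text names all 8 members, called genes of the pathway lists, and the 5 genes most correlated with Cdh11 and with Cdh2, of which 1 is not reported here. Other genes named were chosen after their values were seen. Members and lists were chosen with earlier results of these data known. Alternatives were other normalizations and tools, no filter, removal of satellite genes, subtraction of background, and removal of libraries.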

Additional observations from a re-analysis of the deposited data

Results flagged for a closer look

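A test of whether 1 tumor stands apart from the others of its genotype (Dixon's test at its 95% critical value) was applied to the CPM of each member in each group, 16 groups in all, of which chance flags about 1 in 20. It marked Cdh4 and Cdh6 in F187 among the p53-driven tumors. Cdh4 had 3.16 CPM there, from 8 reads with 5.2 expected as background. Cdh6 had 9.87 CPM there, from 25 reads with 6.4 expected.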

How the results depend on the processing

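The members' calls were few, and the 1 call depended on the processing. The number of members called lower was 0, in place of 1, with upper-quartile normalization, library size alone, no filter, background subtraction and removal of M624 and M664, and leaving out 1 tumor at a time gave 0 to 1. No setting called a member higher. The number of genes called in all was 136 with library size alone, 2317 with DESeq2, 2977 with limma-voom, 494 without a filter and 4595 without F187, M351, M408 and M9, against 809, and 5 to 1588 with single tumors left out. Of the calls, 43.0% were higher in the Myc-knockin tumors, against 64.5% with upper-quartile normalization, 36.8% with library size alone and 56.4% with DESeq2, and the median log2 fold change of all tested genes was 0.14, 0.24 with upper-quartile normalization and 0.027 with library size alone. EdgeR called none of the desmosome genes, against 4 with DESeq2, which had no filter on low counts, and 3 without F187, M351, M408 and M9. The log2 fold change of Cdh13 changed sign, to -0.018 (library size alone), -0.308 (limma-voom) and -0.039 (background subtraction), and lay between -0.328 and 0.389 when 1 tumor at a time was left out. Cdh15 turned to 0.320 without F187, M351, M408 and M9, and Cdh4 to -1.20 with limma-voom. The cause was not tested. The low members could not be tested in some settings, in which they failed the filter. No paired analysis was possible because the columns carry none of the replicate numbers of the labels.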
